A study of Mus musculus with 6 samples.

Results

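The comparison is caloric restriction (CR) begun in middle age: ventricular myocardium of male C57BL/6J mice that entered the diets at 12 months and were killed at 15 months. It rests on 2 of the series' 6 single-dye arrays, 1 for the mice fed ad libitum (AL) and 1 for the CR mice. The diets lasted 3 months, and the food of the CR mice was lowered in early steps to 60% of ad libitum intake. Both groups were caged singly. Per the study, blood was drawn by puncture of the heart and the hearts were washed. Equal amounts of ventricular tissue (n = 6 per group) were combined within each group before RNA was isolated. Each group is thus 1 pool on 1 array, so no difference below has a replicate check or a p-value. A gene entered the comparison when a probe for it was well above the local background in both pools. This left 20271 of the 32451 genes and unnamed transcripts on the array, 14330 of them with a gene symbol. Both pools of 22-month-old mice, AL and CR begun at 19 months, served only to show which 15-month pool stood away from them.

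CR lowers insulin and leptin and lengthens the daily fast. In the heart, fasting raises the use of fatty acids and ketone bodies through the nuclear receptor PPAR alpha and through FOXO factors, which insulin keeps out of the nucleus. Adult cardiomyocytes rarely divide, so transcripts of mitosis in a ventricle come largely from its endothelial, stromal and immune cells. Transcripts of blood cells are also found in ventricular RNA. In such bulk tissue, fewer cells of a type and less RNA per cell cannot be told apart.

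Values are processed signals, the background-subtracted brightness of a spot, or levels, the log2 of that signal relative to the 75th percentile of its array. Differences are the CR level minus the AL level. A gene was called higher or lower from a 2-fold difference, a log2 difference of 1. The scanner's own error for a gene's difference had a median of 0.21 on the log2 scale, and 10% of genes exceeded 0.30. This error covers spots, not mice or pools. Spots of the same probe varied by an SD of 0.07 in the AL pool and 0.08 in the CR pool. The CR array was the dimmer: its 75th percentile was a signal of 199 against 381, and 61.6% of 39429 probes were well above background on it against 77.1% on the AL array.

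With CR, 437 genes were higher by 2-fold or more and 532 were lower, which is 2.16% and 2.62% of the genes measured. Among them 24 were higher and 73 lower by 4-fold or more, and 2 and 21 by 8-fold or more. The falls were the larger changes, and the 5 largest of them were in genes of platelets. Among genes with a symbol, the 3 largest rises were in genes of mitosis. The direction of the calls followed the scaling. Higher calls were 45.1% of all calls, and with median scaling, scaling on probes above background in both pools, loess centring and subtraction of the median difference they were 64.6%, 27.7%, 29.7% and 33.4%.

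The difference also followed the brightness of a gene. Split into 10 classes of equal size by signal, the median difference was 0.19 in the dimmest class, -0.08 in the next, 0.03 in the sixth and 0.36 in the brightest. The dimmest class held 175 of the 437 higher calls and 8 of the 532 lower calls. A bright gene at 0.36 was therefore where the other bright genes were, and most lists below are given with their median after loess centring, which sets every signal class near 0. Background correction by normexp, an alternative that adds an offset to each signal, gave smaller differences for many dim genes. Named calls that it or another alternative took under 2-fold are marked with their lists where they were checked. Over all 20271 genes the median difference was 0.09.

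**Figure D1:**
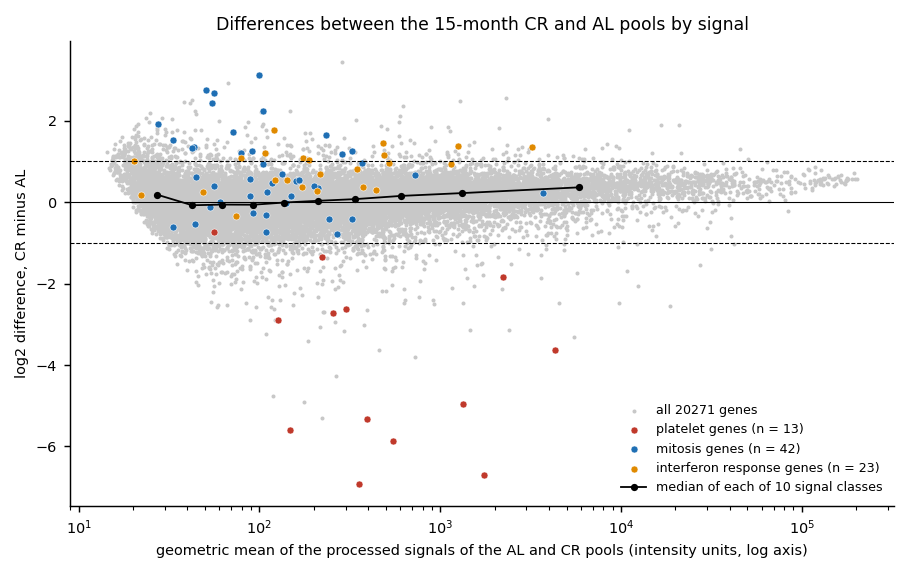
Log2 difference (CR pool minus AL pool at 15 months, 1 array each) against the geometric mean of both processed signals, on a log axis. Grey points are all 20271 genes, coloured points are measured platelet, mitosis and interferon response genes, the black line joins the medians of 10 signal classes, and dashed lines mark a 2-fold difference. The class medians climb from -0.08 to 0.36 from the second to the brightest class, while platelet genes lie at -0.72 to -6.93.

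Which pool stood apart was read against the mean of both 22-month pools, in 859 of the 969 called genes that were above background on all 4 arrays. A pool was said to stand apart when it was at least 2-fold from that mean and the other 15-month pool was not. Among the 336 higher genes the CR pool stood apart in 138 and the AL pool in 44. Among the 523 lower genes the AL pool stood apart in 195 and the CR pool in 182. Over all 19827 genes above background on the 4 arrays, called or not, the AL pool stood apart in 3.59% and the CR pool in 5.54%. Called genes were picked for a gap between the pools, which by itself raises their shares above these. The 22-month pools differ from the 15-month pools in age, in the age at which the diet began and in the slide, and these cannot be told apart. Among the 15 largest falls of genes with a symbol the AL pool stood apart in 12 and both pools in 3. Among the 15 largest such rises the CR pool stood apart in 13 and both pools in 2. With gaps this large, either or both pools had to be 2-fold from the mean, so these counts show only which.

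**Figure D2:**
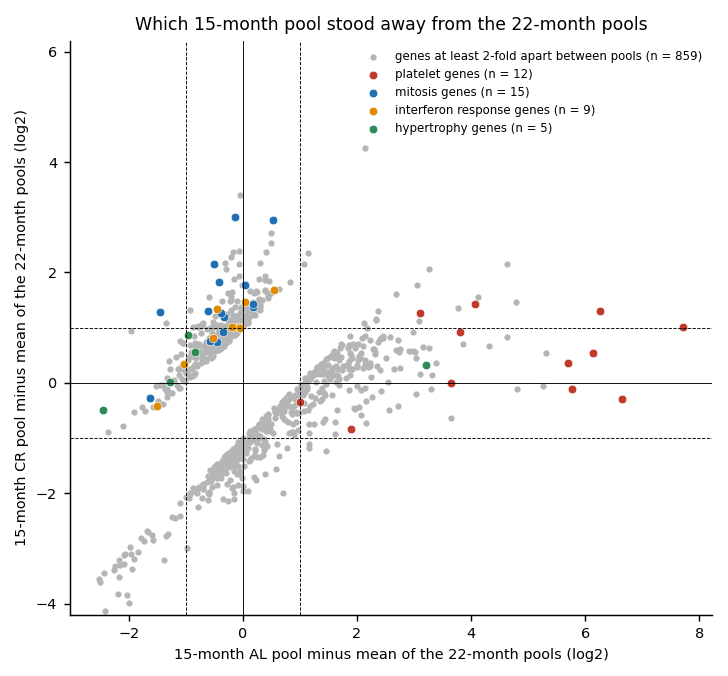
Genes at least 2-fold apart between the 15-month pools (n = 859), placed by the log2 level of the AL pool (horizontal) and of the CR pool (vertical), each minus the mean of both 22-month pools. Dashed lines mark 2-fold. Platelet genes spread along the horizontal axis, to 7.72 above the 22-month mean in the AL pool, most mitosis and interferon response genes lie above 0 in the CR pool, and hypertrophy genes other than Fhl1 lie left of 0.

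Platelet genes were lower in the CR pool almost without exception. Of 24 listed genes, 13 were measured, 12 of these were at least 2-fold lower and 0 higher, and their median difference was -3.64 (-3.90 after loess centring). The other 11 were above background in the AL pool only. Summed over the 13 measured genes, the linear level was 210 in the 15-month AL pool, against 12.3 in the 15-month CR pool and 8.67 and 9.45 in the 22-month AL and CR pools. The AL pool was thus the high sample, and the CR pool lay near both 22-month pools. Blood platelets are fragments of megakaryocytes that carry stable mRNA for their receptors and granule proteins. Whether blood left in the washed hearts differed between the pools was not tested.

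Gp9, a subunit of the receptor with which platelets bind von Willebrand factor, had a signal of 5466 in the AL pool and 23.4 in the CR pool. Its levels were 3.84 and -3.09, against -3.12 and -2.47 in the 22-month AL and CR pools, a difference of -6.93 ± 0.30 (scanner error, 1 array per pool), or 122-fold. Only the AL pool was high. Ppbp, the precursor of a platelet chemokine, was 24502 and 123, with levels of 6.01 and -0.69 against -1.73 and -1.68. Pf4, platelet factor 4, was 21045 and 884, with levels of 5.79 and 2.15 against 1.99 and 2.31. For these granule proteins the AL pool again lay above the other 3 arrays. P2ry12, the ADP receptor blocked by clopidogrel, differed by -5.61, and Alox12, the platelet lipoxygenase, by -5.88. Clec1b, a receptor that activates platelets, differed by -5.33 over 3 probes, which ranged from -6.27 to -3.78. The collagen receptor Gp6 differed by -2.89 and the fibrinogen receptor subunit Itgb3 by -1.85. Selp, P-selectin, which endothelial cells also make, had the smallest difference of the list, -0.72. Vwf, which both cell types make, differed by -1.29.

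For the genes above background in the AL pool only, the filter fixed the direction, so they are given as bounds and not as support. Rgs18, a regulator of G protein signalling in platelets, had a signal of 2593 in the AL pool and, in the CR pool, was lower by a factor of at least 94.8. Treml1 was at least 58.3-fold lower, and Gp1ba and Itga2b, subunits of the main adhesion receptors, at least 35.1- and 35.0-fold. Nfe2, a transcription factor of megakaryocytes, was at least 24.5-fold lower and their tubulin Tubb1 at least 15.6-fold. Of the 11 such genes, 8 were at least 2-fold lower by their bound.

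Of the 15 largest falls of genes with a symbol, 7 were listed platelet genes, and the other 8 were Prkar2b, Hpse, Tmem40, Thbs1, Dap, F5, Ctla2b and Sytl4, with differences from -4.91 for Prkar2b to -3.24 for Sytl4. Ctla2b has a near-identical copy, Ctla2a, so its value is uncertain. Thbs1, thrombospondin 1, is a main protein of platelet granules, and F5 is coagulation factor V. Thbs1 was at a level of 3.30 in the AL pool and -0.51 in the CR pool, but its 22-month levels of 0.36 and -3.02 were also far apart. For Prkar2b, a regulatory subunit of protein kinase A, the AL level was 1.80 and the other 3 arrays lay at -3.11, -3.10 and -2.91.

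Erythroid genes were lower for a part of the list only. Of 20 measured, 7 were at least 2-fold lower and 0 higher, with a median of -0.22 (-0.46 after loess centring), and in all 7 the AL pool stood apart. Hbb-b2, a beta globin, was 35379 in the AL pool and 4412 in the CR pool, with levels of 6.54 and 4.47 against 3.57 and 4.48 at 22 months. Hba-a1, an alpha globin, differed by -1.54 and its near-identical copy Hba-a2 by -0.21, and the globin probes may share transcripts. Alas2, the first enzyme of haem synthesis in red cells, differed by -1.54, and Bpgm, which makes 2,3-bisphosphoglycerate there, by -1.45. Slc4a1, the anion exchanger of the red cell membrane, differed by 0.12, a sign that turned with the processing, and Rhd by 0.80. Among neutrophil genes, 3 of 9 were lower, the calprotectin subunits S100a8 at -1.97 and S100a9 at -1.39 and the peptide Camp at -1.27, with a median of -0.19 (-0.45 after loess centring). Normexp gave -0.84 for S100a8 and -0.19 for Camp. For S100a8 and S100a9 the CR pool stood apart from the 22-month pools, not the AL pool. Lymphocyte lists held 0 calls: the medians were -0.042 over 8 B cell genes and 0.037 over 11 T and NK cell genes (-0.0085 and 0.0031 after loess centring).

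**Figure D3:**
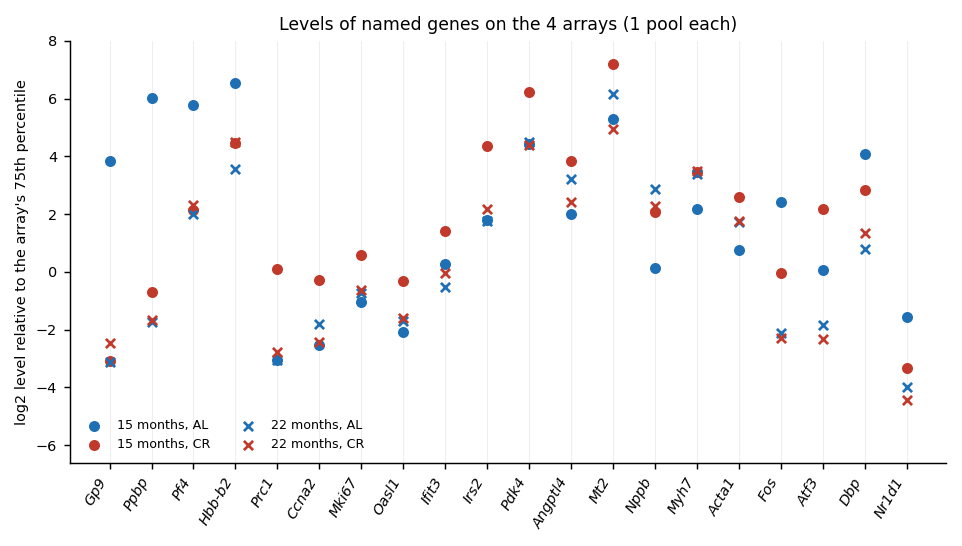
Log2 level of 20 named genes on the 15-month (circles) and 22-month arrays (crosses) of AL (blue) and CR pools (red), 1 pool each, so there are no error bars. The AL circle is far above the other 3 marks for Gp9, Ppbp and Pf4, and the CR circle is the highest mark for Prc1, Ccna2, Mki67, Oasl1, Ifit3, Irs2 and Pdk4.

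Genes induced by interferon were higher in the CR pool. Type I interferon signals through factors such as Stat2 and Irf9, which bind a short element in the promoters of antiviral genes. Of 23 measured, 10 were at least 2-fold higher and 0 lower, 22 were above 0, and the median difference was 0.93 (0.72 after loess centring). Against the 22-month mean, the list's median was -0.05 in the AL pool and 0.99 in the CR pool, and the CR pool stood apart in 9 of 22 genes and the AL pool in 3. Summed over the 23 genes, the linear level was 24.7 in the AL pool, 52.0 in the CR pool, and 29.4 and 32.7 in the 22-month AL and CR pools. The CR pool was the high sample.

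Oasl1, of the oligoadenylate synthetase family, had a signal of 89.2 in the AL pool and 161 in the CR pool, and levels of -2.09 and -0.31 against -1.69 and -1.61 at 22 months. Its difference of 1.78 ± 0.21 was the largest of the list. Oasl2 differed by 1.44, Oas2 by 1.37 and Oas1a by 1.04. All 4 were called, and for Oas2 the AL pool was the one apart. Ifit3, a protein that binds viral RNA complexes, was 455 and 528, with levels of 0.26 and 1.41 against -0.53 and -0.04. Ifit1 differed by 1.09 and Ifit2 by -0.34, a sign that turned with the processing. Usp18, which removes ISG15 from proteins, differed by 1.19, and Ifi27l2a by 1.34. Isg15 itself had 2 probes that disagreed, at -0.38 and 0.93. The signalling gene Stat2 differed by 0.93. Irf7, the factor that amplifies the response, differed by 1.01, but its signals of 19.6 and 20.7 were near background and loess centring lowered it to 0.41. Normexp gave 0.87 for Oas1a, 0.90 for Ifit1 and 0.93 for Usp18. Cxcl10, a chemokine induced by interferon, was above background in the CR pool only, a direction the filter fixed, with a bound of 2.88-fold.

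The promoters of the called members that held an interferon element are shown here, since the list's members moved together. The windows run from 250 bases before to 50 bases after the RefSeq start (build GRCm38.p6), written 5′ to 3′ on the gene's strand, with each match on either strand in capitals. The pattern searched was TTTC, 2 bases of any kind and TTTC. Ifit3 is at chr19:34583279-34583578 (plus strand), Ifit1 at chr19:34640639-34640938 (plus strand) and Oas1a at chr5:120907476-120907775 (minus strand).
Ifit3: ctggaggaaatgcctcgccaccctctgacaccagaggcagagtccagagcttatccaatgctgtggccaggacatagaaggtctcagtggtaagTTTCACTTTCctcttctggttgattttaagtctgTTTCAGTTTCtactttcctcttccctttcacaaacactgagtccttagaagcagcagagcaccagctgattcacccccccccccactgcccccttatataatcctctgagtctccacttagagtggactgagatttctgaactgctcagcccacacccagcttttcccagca
Ifit1: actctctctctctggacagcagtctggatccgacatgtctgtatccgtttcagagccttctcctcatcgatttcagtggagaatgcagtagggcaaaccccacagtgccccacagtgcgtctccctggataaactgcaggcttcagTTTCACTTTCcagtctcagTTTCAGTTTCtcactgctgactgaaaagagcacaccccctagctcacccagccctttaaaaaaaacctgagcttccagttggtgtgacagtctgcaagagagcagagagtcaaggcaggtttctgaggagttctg
Oas1a: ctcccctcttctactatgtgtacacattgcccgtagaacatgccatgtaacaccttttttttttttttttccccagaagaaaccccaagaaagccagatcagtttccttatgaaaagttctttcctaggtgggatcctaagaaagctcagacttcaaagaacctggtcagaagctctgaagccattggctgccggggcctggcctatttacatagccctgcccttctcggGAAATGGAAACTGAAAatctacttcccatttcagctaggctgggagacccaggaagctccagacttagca
Each holds 2 matches, and those of Oas1a overlap. A window was found for 17 of the 23 measured genes, of which 11 held the letters, 3 of 7 called genes and 8 of 10 not called. Of all 27025 genes with a window, 3.99% held them. The match was therefore a property of the list and did not sort called from uncalled members.

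Genes of mitosis gave more higher calls than any other list, on a longer list than the interferon response, which had the larger median. Of 42 measured, 15 were at least 2-fold higher and 0 lower, 31 were above 0, and the median difference was 0.56 (0.52 after loess centring). In 15 of 41 genes the CR pool stood apart from the 22-month pools, and in 1 the AL pool did. Against the 22-month mean, the list's median was -0.37 in the AL pool and 0.18 in the CR pool. Summed over the 42 genes, the linear level was 29.7 in the AL pool and 41.3 in the CR pool. It was 43.4 and 34.5 in the 22-month AL and CR pools, so by this sum the CR pool was not the highest sample. Of the 15 largest rises among genes with a symbol, 6 were on the mitosis and DNA replication lists. Prc1, which bundles microtubules of the central spindle, had a signal of 46.4 in the AL pool and 213 in the CR pool. Its levels were -3.04 and 0.10 against -3.05 and -2.76 at 22 months, a difference of 3.13 ± 0.22, or 8.78-fold. Only the CR pool was high.

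Ccna2, the cyclin of S phase and of entry into mitosis, was 66.4 and 165, with levels of -2.52 and -0.27 against -1.79 and -2.42. Cenpe, the kinetochore motor, differed by 2.67, and Anln, anillin of the cleavage furrow, by 2.43. Cdca3, which helps trigger entry into mitosis, differed by 2.74, but in this gene both 15-month pools stood apart, the AL pool lower and the CR pool higher than at 22 months. Mki67, the proliferation marker Ki-67, was 183 and 300 as the mean of 2 probes, with levels of -1.05 and 0.59 against -0.72 and -0.63, a difference of 1.64 (1.58 and 1.70 by probe). The cyclins Ccnb2 and Ccnf differed by 1.72 and 1.91. Kif23 and Ect2, which act in cytokinesis, differed by 1.27 and 1.51. Aurka, a kinase of the spindle poles, differed by 1.36, and here the AL pool was the one apart. Normexp gave 0.97 for both Ccnf and Ect2.

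The list was not uniform. Hmmr, a spindle protein, and the kinase Pbk differed by -0.78 and -0.74. Probes of a gene disagreed in several cases: the 3 probes of Ccnb1 ran from -1.12 to 1.21, those of the chromosomal passenger Cdca8 were -0.69 and 2.54, and those of the chromosomal passenger Birc5 were 0.14 and 2.28. The condensin subunit Smc4 differed by 1.24 and the chromosomal passenger Incenp by 1.19. Tpx2 and Kif4 were above background in the CR pool only and 3 members in the AL pool only, with directions that the filter fixed. Aurkb, Cenpf, Kif11 and Top2a were not well above background in either pool. The lowest signal among the 15 called was 19.6, for Ccnf in the AL pool.

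Promoters of dividing-cell genes often hold CCAAT boxes and the letters TTTGAA, which mark genes repressed outside the cell cycle. The windows of 3 called members are shown, in the layout used above, with matches to CCAAT and TTTGAA on either strand in capitals. Prc1 is at chr7:80294226-80294525 (plus strand), Cdca3 at chr6:124829926-124830225 (plus strand) and Ccnb2 at chr9:70421505-70421804 (minus strand).
Prc1: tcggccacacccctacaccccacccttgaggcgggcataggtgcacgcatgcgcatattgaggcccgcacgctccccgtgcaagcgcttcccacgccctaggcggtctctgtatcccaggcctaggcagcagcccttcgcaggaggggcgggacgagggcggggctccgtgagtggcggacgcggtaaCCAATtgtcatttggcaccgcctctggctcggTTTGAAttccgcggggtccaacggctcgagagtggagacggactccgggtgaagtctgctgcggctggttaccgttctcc
Cdca3: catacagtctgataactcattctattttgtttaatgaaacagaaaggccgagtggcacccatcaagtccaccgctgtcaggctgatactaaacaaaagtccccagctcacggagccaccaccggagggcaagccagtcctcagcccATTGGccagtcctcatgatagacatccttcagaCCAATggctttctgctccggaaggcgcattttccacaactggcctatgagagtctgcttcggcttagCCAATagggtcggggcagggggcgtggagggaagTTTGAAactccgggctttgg
Ccnb2: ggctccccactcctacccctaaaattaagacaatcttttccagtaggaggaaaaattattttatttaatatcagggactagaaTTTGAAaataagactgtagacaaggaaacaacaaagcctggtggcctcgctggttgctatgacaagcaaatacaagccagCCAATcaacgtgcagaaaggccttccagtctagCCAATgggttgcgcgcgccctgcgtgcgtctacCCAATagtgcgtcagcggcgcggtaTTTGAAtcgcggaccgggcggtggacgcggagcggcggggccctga
A window was found for 36 of 42 measured genes. Both motifs were held by 23 of them, 63.9%, against 7.97% of all 27025 genes. They were held by 9 of 12 called genes and 14 of 24 not called. Counted separately, CCAAT was in 41.1% and TTTGAA in 20.2% of all genes with a window.

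Genes of DNA replication were higher for a few members. Of 26 measured, 5 were at least 2-fold higher and 0 lower, with a median of 0.22 (0.13 after loess centring). Rrm2, a ribonucleotide reductase subunit made in S phase, was 65.5 and 160, with levels of -2.54 and -0.32 against -3.17 and -2.90 at 22 months. Tk1, thymidine kinase, differed by 1.87, and Uhrf1, which keeps DNA methylation through replication, by 1.25. The flap endonuclease Fen1 and the licensing factor Cdt1 differed by 1.20 and 1.09. In these 5 genes the CR pool stood apart. Uhrf1 was at 0.092 with no filter on dim probes and 0.79 with normexp, which also took Cdt1 to 0.90 and Fen1 just under 2-fold. The helicase subunits Mcm3 and Mcm7 differed by 0.50 and -0.18 and the polymerase clamp Pcna by -0.088, a sign that turned with the processing. Among cell cycle inhibitors and markers of senescence, 2 of 16 were higher and 1 lower, with a median of 0.13 (0.0058 after loess centring). Cdkn2a, which encodes p16, differed by 1.07 (0.84 with normexp) and Cdkn1a, p21, by 0.56, the mean of a bright probe at 0.97 and a dim probe at 0.15. Igfbp3 differed by -2.48, with a signal of 276 in the AL pool and 25.9 in the CR pool.

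**Figure D4:**
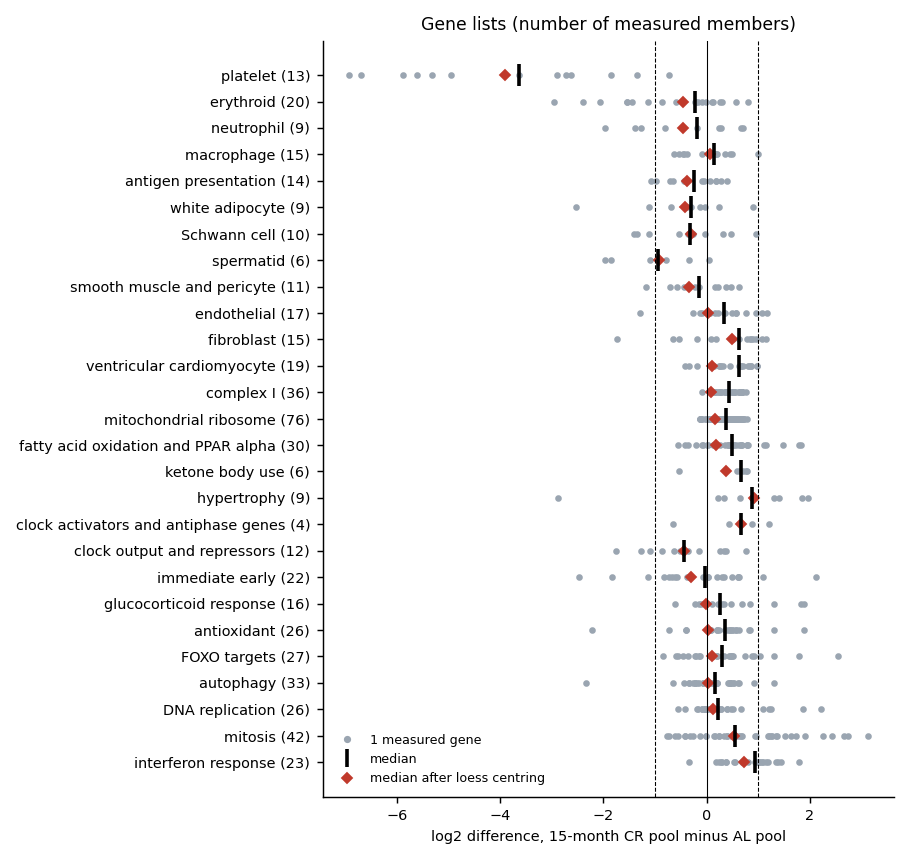
Log2 difference (CR pool minus AL pool) of each measured member of 27 gene lists (grey points), the list median (black bar) and its median after loess centring (red diamond). Dashed lines mark 2-fold, and the number of measured members stands after each name. Platelet genes lie far to the left, interferon response and hypertrophy medians lie near 0.9, and for complex I and cardiomyocyte genes the diamond lies near 0.1 while the bar lies at 0.43 and 0.62.

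Genes of fatty acid oxidation and PPAR alpha targets were higher in part. Of 30 measured, 5 were at least 2-fold higher and 0 lower, 24 were above 0, and the median was 0.49, which loess centring lowered to 0.19. Pdk4, a kinase that inhibits pyruvate dehydrogenase in fasting, had a signal of 8237 in the AL pool and 14840 in the CR pool. Its levels were 4.44 and 6.22 against 4.51 and 4.39 at 22 months, a difference of 1.78. Angptl4, an inhibitor of lipoprotein lipase, was 1544 and 2864, with levels of 2.02 and 3.84 against 3.21 and 2.404. In both, the CR pool was the highest of the 4. Acot1, a thioesterase of long-chain acyl-CoA, differed by 1.48, and the lipid droplet proteins Plin5 and Plin2 by 1.15 and 1.12, which loess centring put under 2-fold, at 0.85 and 0.98. The CR pool stood apart in 9 of the 30 genes and the AL pool in 0.

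The enzymes of the pathway itself differed less. Cpt1b, the muscle form of the carnitine transferase, differed by 0.53 and the liver form Cpt1a by -0.42. Fabp3, the fatty acid carrier of the heart, differed by 0.66, the fatty acid transporter Cd36 by 0.69, Acadl by 0.80 and Ppara itself by 0.43. Ppargc1a, the coactivator of mitochondrial genes, differed by 0.00087, a sign that turned with the processing. Ketone body genes had a median of 0.67 (0.38 after loess centring) over 6, with 0 at 2-fold: Bdh1 and Oxct1, which use ketones, differed by 0.76 and 0.70, and the carrier Slc16a1 by -0.54. Of 21 glycolysis genes 1 was called, Pfkfb3, which makes the activator of phosphofructokinase, at -1.03 (-0.60 with no filter on dim probes), and the list's median of 0.17 turned to -0.15 after loess centring.

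The respiratory chain moved with the other bright genes. Complex I genes had a median of 0.43 over 36, complex II 0.44 over 4, complex III 0.58 over 9, complex IV 0.49 over 14 and complex V 0.53 over 15, and none of these 78 genes was called. After loess centring the medians were 0.08, 0.16, 0.19, 0.06 and 0.12. Within complex I the highest difference was 0.77, for Ndufa12. Mitochondrial ribosomal genes had a median of 0.37 over 76 and cytosolic ribosomal genes 0.36 over 81, with 0 calls in either, and loess centring gave 0.16 and 0.00. The median of the brightest signal class, 0.36, was thus that of the cytosolic ribosome. Genes of pyruvate oxidation and the TCA cycle had a median of 0.48 over 19 (0.24 after loess centring), also with 0 calls.

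The study followed AMPK and FOXO signalling as a pathway of CR, and no AMPK or FOXO gene was called here. The study's own FOXO rises at this age were also under 2-fold, so calls at 2-fold do not test them. It reported no significant fall of AMPK mRNA at this age and a rise of AMPK phosphorylation, which RNA does not show. AMPK senses low energy and FOXO factors respond to low insulin. The 7 AMPK subunits differed by 0.081 (Prkaa1), 0.15 (Prkaa2), 0.30 (Prkab1), 0.17 (Prkab2), 0.019 (Prkag1), 0.19 (Prkag2) and -0.28 (Prkag3). The signs of Prkaa1, Prkag1 and Prkag3 turned with the processing. Of the FOXO factors, Foxo1 differed by 0.43, Foxo3 by -0.33, Foxo4 by 0.78 and Foxo6 by 0.20, with signs that turned for Foxo3 and Foxo6. The study reported a rise of Foxo1, Foxo3 and Foxo4 at this age on the array, followed by quantitative PCR. Foxo1 and Foxo4 had that sign here, while the sign of Foxo3 depended on the processing. The signals of Foxo4 were 24.0 and 21.6.

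FOXO targets were called in 4 of 27, all higher, with a median of 0.29 (0.11 after loess centring). Irs2, the insulin receptor substrate that FOXO1 induces in fasting, had a signal of 1317 in the AL pool and 4044 in the CR pool. Its levels were 1.79 and 4.34 against 1.77 and 2.16 at 22 months, a difference of 2.55 ± 0.20, or 5.86-fold, and the fourth largest rise among genes with a symbol. The CR pool was the only high sample. Pdk4, given above, is on this list too. Gabarapl1, a protein of the autophagosome, differed by 1.30 and the apoptosis gene Bbc3 by 1.04, which loess centring took to 0.97 and just under 2-fold. The ubiquitin ligase Fbxo32, atrogin-1, differed by 0.91. Bnip3l, a receptor for mitophagy, differed by -0.85. Of 33 autophagy genes, 1 was higher, Gabarapl1, and 1 lower, Becn1, which encodes beclin 1, with a signal of 345 in the AL pool and 35.7 in the CR pool, a difference of -2.34. The list's median was 0.17 (0.02 after loess centring). For Becn1 the AL pool stood apart. The 7 sirtuins held 0 calls and a median of 0.40 (0.19 after loess centring), with 0.0090 for Sirt1, whose sign turned with the processing, and 0.58 for the mitochondrial Sirt3.

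Markers of hypertrophy were higher in the CR pool. Of 9 measured, 4 were at least 2-fold higher and 1 lower, with a median of 0.88 (0.91 after loess centring). Nppb, brain natriuretic peptide, had a signal of 413 in the AL pool and 848 in the CR pool, and levels of 0.12 and 2.09 against 2.87 and 2.29 at 22 months. Acta1, skeletal alpha actin, was 646 and 1212, with levels of 0.76 and 2.60 against 1.71 and 1.75. Myh7, the slow myosin heavy chain, was at 2.16 and 3.46 against 3.38 and 3.50. Ankrd1, a titin-binding stress protein, was at 2.39 and 3.79 against 3.28 and 3.20. For Nppb and Myh7 the AL pool was the one apart, and it was the lowest of the 4 arrays in all 4 genes. Nppa, atrial natriuretic peptide, differed by 0.34, and Fhl1, a LIM protein of muscle, by -2.89. By quantitative PCR, the study found no significant difference with CR at this age for Nppa, Nppb and Myh7.

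Markers of the cell types of the ventricle checked the tissue. All 19 ventricular cardiomyocyte genes were measured, with a median of 0.62 that loess centring lowered to 0.11 and with 0 calls. Their differences ran from -0.42 for Pln, phospholamban, to 0.98 for Csrp3, muscle LIM protein, with 0.32 for Myh6 and 0.15 for Tnnt2, signs that turned with the processing. Of 8 atrial genes, 6 were measured with 0 calls and a median of -0.0033 (-0.032 after loess centring), and Myl7 and Sln were above background in the AL pool only. Of 15 fibroblast genes, 2 were higher and 1 lower, with a median of 0.62 (0.48 after loess centring). Postn, periostin, differed by 1.15 and the collagen Col3a1 by 1.08, both with the CR pool apart, though the 22-month levels of Col3a1, 4.58 and 2.71, were themselves far apart. Loess centring took Postn to 0.98 and Col3a1 to 0.77. Dpt, dermatopontin, differed by -1.73 (-0.48 with normexp). Of 15 collagens Col3a1 alone was called, and Col1a1 differed by 0.84. Fn1, fibronectin, differed by 0.88 and Tgfb1, also a platelet granule protein, by -0.83.

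Of 17 endothelial genes, 2 were higher and 1 lower, with a median of 0.34 (0.03 after loess centring). Erg, an endothelial transcription factor, differed by 1.16 (0.69 with no filter on dim probes). Fabp4, the fatty acid carrier of capillaries and adipocytes, differed by 1.06, a value that loess centring lowered to 0.59, and Egfl7 by 0.96. Cldn5, the tight junction claudin of endothelium, had a signal of 751 in the AL pool and 2204 in the CR pool, with levels of 0.98 and 3.47 against 1.57 and 1.01 at 22 months. It was the sixth largest rise among genes with a symbol, and only the CR pool was high. Of 11 smooth muscle and pericyte genes, 5 were above 0, up to 0.62 for the pericyte receptor Pdgfrb. Cnn1, calponin, differed by -1.18 (-0.97 with normexp), Tagln by -0.71 and Acta2 by -0.58, with the AL pool apart in each. Cnn1 was the 1 gene called, and the median was -0.14 (-0.34 after loess centring).

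The clock's activators drive the repressors and the output factors, whose peaks lie at another time of day. Of 12 output and repressor genes, 3 were at least 2-fold lower and 0 higher, with a median of -0.43 with and without loess centring. Of the 12, 4 were above 0, up to 0.76. Nr1d1, REV-ERB alpha, was 130 in the AL pool and 20.0 in the CR pool, a difference of -1.76 (-0.41 with normexp), with the CR signal near background. Dbp, an output factor, was 6522 and 1438, with levels of 4.10 and 2.83 against 0.77 and 1.33 at 22 months. Nr1d2, REV-ERB beta, differed by -1.09 (-0.96 with median scaling), and Per2 by -0.87. For Dbp both 15-month pools lay above both 22-month pools. Per1 and Tef differed by 0.33 and 0.25, with signs that turned with the processing. Of 4 activators and antiphase genes, 1 was higher and 0 lower, with a median of 0.66 (0.67 after loess centring): Nfil3, a repressor of the output genes, differed by 1.21 (0.84 with normexp), the activator Arntl (BMAL1) by 0.88, Clock by 0.44 and the repressor Cry1 by -0.65, a sign that turned with the processing. No source used here gives the hour at which the mice were killed. Of 9 output genes with a promoter window, 4 held an E-box (CACGTG), against 8.09% of all genes, and of the 3 lower genes 0 did.

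Immediate early genes went both ways. Of 22 measured, 2 were higher and 3 lower, with a median of -0.03 (-0.30 after loess centring). Fos, a transcription factor induced within minutes of a stimulus, was 2060 in the AL pool and 194 in the CR pool, with levels of 2.44 and -0.04 against -2.11 and -2.29 at 22 months. Atf3, a stress-induced factor, was 394 and 901, with levels of 0.05 and 2.18 against -1.85 and -2.33. For both genes the 15-month pools lay above both 22-month pools. Zfp36 differed by -1.84, Ier2 by -1.14 (-0.28 with normexp) and Jun by 1.08 (0.79 after loess centring). Egr1 and Nr4a1 differed by -0.58 and 0.023, the latter with a sign that turned with the processing, and both were over 2-fold above the 22-month mean in either 15-month pool.

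Genes that respond to glucocorticoids or metals held 3 calls of 16, all higher, with a median of 0.26 (-0.02 after loess centring). Mt2, a metallothionein, had a signal of 15003 in the AL pool and 29017 in the CR pool, with levels of 5.30 and 7.19 against 6.17 and 4.95 at 22 months. Mt1 was 39697 and 51677 and differed by 1.31, which loess centring lowered to 0.84. Fkbp5, a chaperone of the glucocorticoid receptor, differed by 0.83. Of 26 antioxidant genes, 2 were higher, both metallothioneins, and 1 lower, Gclm, a subunit of glutathione synthesis, with signals of 466 and 52.0 and a difference of -2.23. Gsr, glutathione reductase, differed by -0.73 and Nqo1 by 0.85.

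Antigen presentation, complement and inflammation genes moved little as lists. Of 14 antigen presentation genes 1 was lower, H2-Aa at -1.09 (-0.15 with normexp), with a median of -0.24 (-0.38 after loess centring). B2m, the light chain of class I molecules, was 19995 in the AL pool and 5326 in the CR pool, a difference of -0.98, and the invariant chain Cd74 differed by -0.72. In these 3 the AL pool stood apart. Cfd, adipsin, a complement enzyme made by fat cells, differed by -2.54 (-0.93 with normexp) with a CR signal of 19.8, and the 11 complement genes had a median of -0.19 (-0.31 after loess centring). Among 13 inflammation genes, with a median of 0.11 (-0.021 after loess centring), Cxcl1 and Ptgs2 differed by -1.60 and -1.25 and Il1b by 1.19, and normexp gave -0.60, -0.077 and 0.86. These 3 were all at signals of 212 or less. Of 15 macrophage genes 1 was called, Ms4a7 at 1.001 (0.76 with normexp), with a median of 0.15 (0.071 after loess centring).

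Of the 15 largest rises among genes with a symbol, 9 were on neither cell cycle list. Besides Irs2 and Cldn5 these were Tmem132b, Arid5a, Kif22, Pimreg, Rad51ap1, Lockd and Kntc1, at 2.43, 2.36, 2.24, 2.23, 2.46, 2.50 and 2.20. Kif22 is a chromosome motor, Rad51ap1 acts in recombination and Kntc1 in the spindle checkpoint. Kntc1 was near background, at 16.0 and 38.4, and loess centring lowered it to 1.42. With no filter on dim probes Tmem132b was at 0.98. Arid5a, which stabilises inflammatory mRNA, was 381 and 1026, with levels of 0.00 and 2.36 against 0.53 and 0.05, so that the CR pool alone was high. Farther down, and chosen after their values were seen, Ptgds, a prostaglandin D synthase, was 11942 and 23153, a difference of 1.89, and the kinase Sik1 differed by 1.85. Of the 437 higher genes 62 were on any list other than that of olfactory receptors, and of the 532 lower genes 52.

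Genes above background in 1 pool only added bounds. There were 84 genes above background in the CR pool only and 4805 in the AL pool only, and the AL array was the brighter. Their directions were fixed by the filter, and the lowest level above background lay lower on the AL array, which favoured large bounds for the 84. All 84, and 171 of the 4805, had a bound of 2-fold or more. Of those with a symbol, the largest bounds toward CR were Olfr311, Gm973, Neil3, Iqgap3 and Htr5b, at least 14.3-, 6.81-, 6.72-, 6.25- and 6.10-fold higher, with CR signals of 66.5, 31.7, 43.1, 29.1 and 28.4. Neil3 is a DNA glycosylase of dividing cells. The 5 largest toward AL were Rgs18, Treml1, Gp1ba, Itga2b and Stx11, of which Stx11, a syntaxin of platelet and lymphocyte secretion, was at least 31.7-fold lower.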

How the data were processed

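Total RNA of each pool was labelled with Cy3 and hybridised to an Agilent mouse genome array, 1 array per group. The authors extracted spot intensities with Agilent Feature Extraction 11.0.1.1 (per the labels and file headers), which subtracts the background and removes spatial trends. The deposited flags, scored 0 or 1, mark spots above background, outlier spots and saturated spots, of which there were 0. The authors also deposited log2 values. Their scale is log2, and they look quantile normalized over the 6 arrays, but their normalization settings are not given in the sources used here. They served as an alternative only. Per the slide barcodes in the file headers, both 15-month arrays share 1 slide and both 22-month arrays another. The 6-month arrays were not used here.

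Control and outlier spots were left out, spots of a probe averaged, and log2 intensities set relative to the 75th percentile of each array. Probes of a gene were averaged. Of 28684 probes with a RefSeq accession, 27228 were matched to a symbol. Differences were called at 2-fold, with no test, since each group has 1 array. The number of arrays limits the precision. For a gene above background in 1 pool only, the bound is the bright level over the higher of the dim probe's own level and the lowest level among probes above background on the dim array. Loess used a span of 0.3. Python 3.11.15 and limma 3.58.1 were used, and the scripts were tested on simulated data. Promoters are from RefSeq.

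The comparison, the 68 gene lists and the genes were chosen with earlier results of these data known. Named were the 15 genes with a symbol with the largest rise and fall, the 5 largest bounds each way, up to 6 members of a list each way, and all AMPK and FOXO genes. Named outside this rule, after their values were seen, were Gp6, Itgb3, Selp, Nfe2, Tubb1, Ctla2a, Hba-a2, Mki67, Stat2, Irf9, Oas1a, Ifit1, Isg15, Irf7, Cxcl10, Ccnb2, Kif23, Ect2, Aurka, Ccnb1, Cdca8, Birc5, Smc4, Incenp, Tpx2, Kif4, Mcm3, Cpt1b, Fabp3, Cd36, Ppara, Ppargc1a, Tnnt2, Myl7, Sln, Egr1, Nr4a1, Ptgds and Sik1. Scaling, background correction, filters, outlier spots and the choice of probe were varied in 12 alternatives. Some members of the lists are not reported here.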

Additional observations from a re-analysis of the deposited data

How the results depend on the processing

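Genes called higher, 437 as reported, numbered 659 with median scaling, 253 with loess centring, 126 with normexp background correction, 3522 with no filter on dim probes and 170 with a signal of at least 100 on both arrays. Those called lower, 532 as reported, numbered 208 with normexp, 1768 with no filter and 158 with the signal minimum. Called genes whose AL pool stood apart, 239 as reported, numbered 128 with normexp and 100 with the signal minimum. Those whose CR pool stood apart, 320 as reported, numbered 83, 204, 576 and 117 with normexp, the deposited log2 values, no filter and the signal minimum. Gene lists with a median of at least 0.5 in size, 11 as reported, numbered 18 with median scaling, 7 with scaling on probes above background, 7 with quantile normalization, 6 with loess, 7 with normexp and 7 with the deposited values. The 255 genes bounded at 2-fold became 743 with loess and 41 with normexp. The cause was not tested. Of the genes called higher, loess kept 244 and normexp 126, and of those called lower, 487 and 179.

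The platelet, interferon response, hypertrophy and spermatid medians stayed at 0.5 or more in size in all 12 alternatives that gave a value (spermatid 11), at -4.81 to -3.50, 0.72 to 1.06, 0.68 to 1.09 and -1.07 to -0.50. The mitosis median ran from 0.42 to 0.69. Of 68 lists, 26 medians changed sign in some setting. Of 130 called genes among those checked, 83 were called in every setting and 0 changed sign. Bounds were not computed for the alternatives without a filter, with all 4 arrays, with the signal minimum, with the brightest probe or with the median subtracted. No paired analysis was possible because each group has 1 array.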

Other observations

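Several gene lists outside the comparisons above held calls. Over all genes measured, 2.16% were higher and 2.62% lower, and small counts are to be read beside these shares. Of 10 Schwann cell genes, 3 were lower and 3 above 0, with a median of -0.32 (-0.30 after loess centring). Among those lower were Cnp at -1.35 and Cdh19 at -1.11 (-0.58 and -0.21 with normexp), and Prx, a protein of peripheral myelin, was at 0.96. In both Cnp and Cdh19 the AL pool stood apart from the 22-month pools. Cnp is a protein of myelin. Of 15 cholesterol synthesis genes, 1 was higher, Nsdhl at 1.11, and 1 lower, and the median was -0.046 (-0.039 after loess centring). Gdf15, a stress-induced cytokine, differed by 1.47, with levels of -2.35 and -0.88 against -0.83 and -0.82 at 22 months, so that the AL pool was low. Nsdhl and Gdf15 were not among the genes checked in the alternatives. Sdf2l1, a chaperone of the endoplasmic reticulum, differed by -1.28 (-0.75 with normexp). Myot, a protein of the muscle Z-disc, differed by 1.53 and the calcium buffer Pvalb by -1.23 (-0.83 with normexp).

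Of 6 measured genes of spermatids, which a ventricle should lack, 3 were lower with CR and 0 higher: Tnp2, Prm1 and Tnp1, which pack sperm DNA, differed by -1.97, -1.85 and -1.10 (-0.82, -0.92 and -0.68 with normexp). Prm2, the other protamine, was at 0.046, a sign that turned with the processing. The 22-month AL pool was the highest of the 4 arrays for each, with a Prm1 level of 2.12 against -0.49 and -2.34 in the 15-month AL and CR pools and -2.81 in the 22-month CR pool. The part of other tissue in this was not tested. Of 202 measured olfactory receptors, 6 were higher and 3 lower, with a median of 0.12 (0.058 after loess centring). Over all genes, 2.16% were higher and 2.62% lower.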
